A study of Mus musculus with 34 samples.

Results

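Definitive endoderm (DE) of the wild-derived mouse strain PWK/PhJ was set against the epiblast stem cells (EpiSC) it was made from, in 7 of the 34 RNA libraries of the series. The 7 were chosen by their strain label alone: 4 libraries of DE, from lines AC695, AC698, AC705 and AC699, and 3 of EpiSC, from lines AC695, AC698 and AC705. The EpiSC lines had been converted from embryonic stem cells and were kept on irradiated mouse embryonic fibroblasts in FGF (12.5 ng/mL), Activin A (20 ng/mL) and the tankyrase inhibitor NVP (175 nM), which holds Wnt signalling down. For DE, the cells were plated on laminin for 5 h in the same factors with the ROCK inhibitor thiazovivin (2 uM), in a defined medium with insulin and knockout serum replacement. For the next 16 h they were given Activin A (40 ng/mL) and CHIR (3 uM), an inhibitor of GSK3. For the last 24 h they were given Activin A (100 ng/mL) and LDN-193189 (100 nM), an inhibitor of BMP receptors. Cells bearing CXCR4 were then taken on magnetic beads, at 40 h of differentiation.

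The 4 DE libraries are from 4 lines and the 3 EpiSC libraries from 3 of those same lines. The p-values of DE against EpiSC therefore measure the spread between lines of 1 strain. Those of the strain difference, given later, use 1 estimate of spread from a fit of all 7 strains of the series. Groups with 1 library, which are both of DBA/2J and DE of CAST/EiJ, add nothing to that estimate. The EpiSC libraries came from a stranded polyA kit, and the DE libraries from a low-input kit that amplified 2 ng of RNA over 12 cycles. RNA integrity numbers were 9.5 to 10 for EpiSC and 7.7 to 10 for DE. Kit, RNA input and cell type change together in these libraries, and their effects cannot be told apart. In bulk RNA, fewer cells of a type and less RNA per cell cannot be told apart either.

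Definitive endoderm is the germ layer of the gut, liver, pancreas and lung. In the embryo it leaves the epiblast through the anterior primitive streak under high Nodal signalling, which Activin A stands in for in culture through the same receptors and SMAD2/3. Eomes, Mixl1 and Gsc are switched on first, then Sox17, the FOXA factors and the GATA factors, while the pluripotency factors Pou5f1, Sox2 and Nanog are lost at different rates. Mouse EpiSC model the epiblast just before this step and themselves depend on FGF and Activin.

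Total counts were 25.6 to 30.4 M (M for mega, reads assigned to genes) in EpiSC and 24.4 to 58.4 M in DE, with the largest in DE of AC705. Levels below are CPM (counts per 1 M counts of the library, after scaling), and changes are log2 folds of DE over EpiSC with their standard error (SE). Between lines, EpiSC differed little: the median absolute log2 difference over 12097 genes was 0.094 to 0.12 for the 3 EpiSC pairs. It was 0.189 to 0.395 for the 6 DE pairs, highest for pairs with AC699, and 0.78 to 0.91 between any EpiSC and any DE library. Mitochondrial genes took 1.83% to 1.96% of counts in EpiSC and 0.727% to 0.898% in DE. The 4 Y-linked genes examined summed to 244 to 308 CPM in EpiSC and to 250 to 339 CPM in DE of 3 lines, but to 6.6 CPM in DE of AC699. Of 17351 genes tested, 11325 were called at an adjusted p under 0.05, which is 65.3% of them. Genes called higher in DE numbered 5886 (33.9%) and genes called lower 5439 (31.3%). The median log2 fold of all genes was 0.01, and for 70.0% of genes the levels of the 4 DE and 3 EpiSC libraries did not overlap. With this background, a list in which some members are called is ordinary. The counts below are read against these shares, also where the shares are not repeated. The lists and their members were chosen with earlier results of these data known. An excess of called members over all genes is therefore a description and no independent support.

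The defining markers followed the labels. Sox17, the transcription factor that specifies definitive endoderm (chromosome 1, 4490931 to 4497354, GRCm38), was at 4.93, 2.78 and 1.94 CPM in EpiSC of AC695, AC698 and AC705. In DE of the same lines it was at 1184, 1367 and 1179 CPM, and in AC699 at 1313 CPM. All 4 DE libraries therefore stood far above all EpiSC libraries and close to one another (log2 fold 8.6 ± 0.34, adjusted p = 5.74e-07). Cer1, a secreted antagonist of Nodal, BMP and Wnt made by anterior endoderm (chromosome 4, 82881751 to 82885148), was at 48.6, 18.6 and 27.1 CPM in EpiSC and at 7989, 5005, 6014 and 2642 CPM in DE of AC695, AC698, AC705 and AC699. The groups did not overlap, and AC699 held the lowest DE level (7.42 ± 0.55, adjusted p = 7.93e-06). Pou5f1, which encodes the pluripotency factor OCT4 (chromosome 17, 35506018 to 35510772), was at 628, 616 and 739 CPM in EpiSC. In DE it was at 4.48 CPM in AC695, 13.1 in AC698, 8.38 in AC705 and 20.7 in AC699, so that a remnant was measured in every DE library (-5.83 ± 0.46, adjusted p = 1.06e-05).

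**Figure D1:**
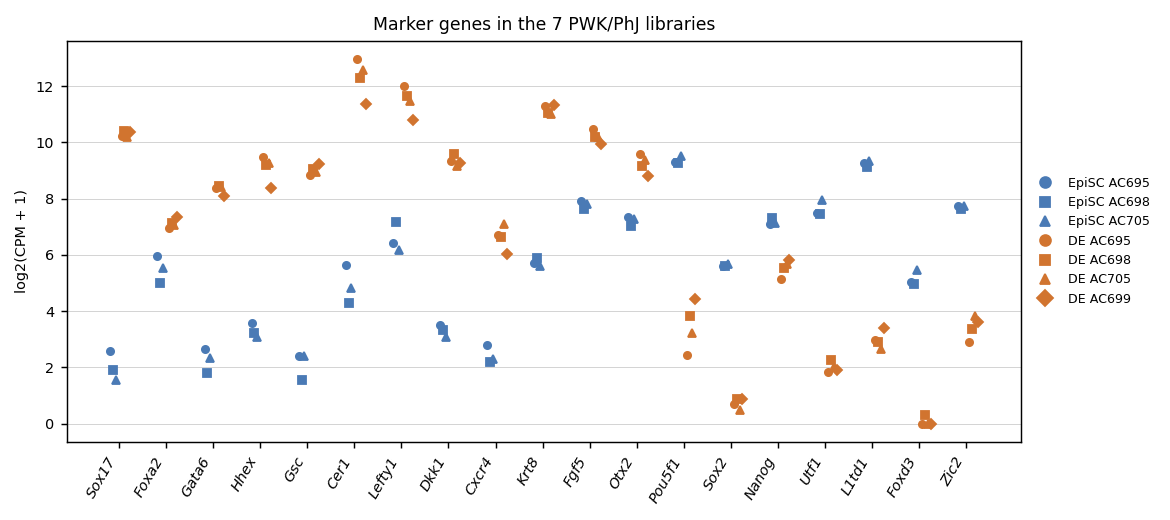
Level of 19 marker genes as log2(CPM + 1) in each of the 3 EpiSC libraries (blue) and 4 DE libraries (orange) of PWK/PhJ, with 1 symbol shape per line. Genes from Sox17 to Otx2 lie higher in DE and genes from Pou5f1 to Zic2 lower, and Cer1 in DE runs from 2642 CPM in AC699 to 7989 CPM in AC695.

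The 250 bases before the annotated start of Cer1 and of Pou5f1 are shown because these genes mark the start and the end of the change. Both are from RefSeq on GRCm38.p6, read 5′ to 3′ on the gene's strand, at chr4:82885152-82885401 (minus strand) and chr17:35505782-35506031 (plus strand). In Cer1, capitals mark matches to TGTTTNC, a loose forkhead core. In Pou5f1, capitals mark first a GC box and then a core site of nuclear receptors.
Cer1: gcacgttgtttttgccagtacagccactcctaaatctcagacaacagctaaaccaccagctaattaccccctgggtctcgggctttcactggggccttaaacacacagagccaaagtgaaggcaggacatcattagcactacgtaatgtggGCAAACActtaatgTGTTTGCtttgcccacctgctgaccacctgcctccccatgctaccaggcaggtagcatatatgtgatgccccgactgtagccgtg
Pou5f1: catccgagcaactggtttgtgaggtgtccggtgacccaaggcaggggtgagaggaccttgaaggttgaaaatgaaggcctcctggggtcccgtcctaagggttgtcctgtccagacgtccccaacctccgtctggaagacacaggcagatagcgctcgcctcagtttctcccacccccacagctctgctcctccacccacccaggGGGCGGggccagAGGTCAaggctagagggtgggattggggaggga
Both strands were searched. The loose forkhead core was found at 2 places in Cer1, 1 on each strand, as an inverted repeat, and 17.8% of 32817 promoters hold it. The GC box, with the letters GGGCGG, was in 32.7% of promoters. The nuclear receptor core, with the letters AGGTCA, was in 14% of them. These 3 motifs were added after the sequences were seen.

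Other motifs, of factors named here, were in neither window. They were the FOXH1 site, searched as TGTGGAT, which 2.78% of promoters hold, and the SOX core, searched as ATTGT, with a share of 27.7%. The GATA site, searched as AGATAA, was in 9.99% of promoters. Part of the POU octamer, searched as ATTTGCA, was in 3.57%, and the strict forkhead core, searched as TGTTTAC, in 3.16%. A match is a description of letters, and binding was not measured.

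Transcription factors of definitive endoderm rose together. Of 18 listed, 17 had enough counts to test, and all 17 were higher in DE, against 33.9% of all genes, with a median log2 fold of 4.98 against 0.01. Sox7, a SOXF relative of Sox17, did not pass the filter. The levels in DE differed less between lines than between states. Foxq1, a forkhead factor, was at 1.17 to 2.09 CPM in EpiSC and at 413, 444, 320 and 293 CPM in DE of AC695, AC698, AC705 and AC699 (7.92 ± 0.29, adjusted p = 4.72e-07). Gsc, the homeobox gene of the anterior streak and organizer, was at 1.93 to 4.28 CPM in EpiSC and at 456 to 604 CPM in DE (7.22 ± 0.31).

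The GATA factors and Hhex showed the same order. Gata6 was at 2.5 to 5.36 CPM in EpiSC and 272 to 349 CPM in DE (6.34 ± 0.27), and Gata4 at 6.6 to 9.80 and 128 to 253 CPM (4.59 ± 0.27). Hhex, a homeobox gene of anterior endoderm and liver, was at 10.9, 8.28 and 7.38 CPM in EpiSC and at 703, 580 and 616 CPM in DE of the paired lines, with 334 CPM in AC699 (5.97 ± 0.32, adjusted p = 1.65e-06). Lhx1, a LIM homeobox factor, rose by 4.98 ± 0.34 and Prdm1, which encodes BLIMP1, by 3.64 ± 0.25.

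The smallest changes in this list belonged to genes that EpiSC already expressed. Eomes, the T-box factor upstream of endoderm, was at 93.2 to 123 CPM in EpiSC and at a narrow 261 to 278 CPM in DE (1.28 ± 0.11, adjusted p = 1.83e-05). The pioneer factor Foxa2 was at 60.6, 31.0 and 45.6 CPM in EpiSC and 124 to 162 CPM in DE (1.61 ± 0.22, adjusted p = 0.000223). Foxa1 was at 5.71 to 7.48 CPM in EpiSC and 166 to 315 CPM in DE (5.38 ± 0.27). The third member, Foxa3, which acts later in liver, was at 0 to 0.294 CPM and 1.58 to 9.21 CPM (5.11 ± 0.92). The 3 FOXA genes thus differed in their starting level more than in whether they rose.

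Secreted factors of anterior endoderm rose as well. Of 12 listed, 10 were called, all higher in DE, with a median log2 fold of 4.88. Lefty1, a Nodal antagonist, was at 85.6, 142 and 71.0 CPM in EpiSC and at 4072, 3222, 2838 and 1787 CPM in DE of AC695, AC698, AC705 and AC699 (4.91 ± 0.37, adjusted p = 8.85e-06). The Wnt antagonist Dkk1 was at 7.50 to 10.4 CPM in EpiSC and 574 to 773 CPM in DE (6.17 ± 0.19, adjusted p = 2.68e-07). Other secreted Wnt antagonists followed, with Sfrp1 higher by 4.53 ± 0.36, Frzb by 4.85 ± 0.24 and Sfrp5, from about 0.1 CPM, by 6.55 ± 0.95. Cyp26a1, which breaks down retinoic acid, was at 7.26 to 8.42 CPM in EpiSC and 381 to 584 CPM in DE (5.91 ± 0.22). Chrd, a BMP antagonist of the node and axial mesoderm, was not called (0.67 ± 0.29, adjusted p = 0.0725), with AC699 the lowest DE library at 62.5 CPM against 101 to 111 in the others. Its adjusted p was 0.0275 without AC699 and 0.035 without EpiSC of AC695, and 0.0184 with line as a block. Trh, which encodes thyrotropin-releasing hormone, was also not called (0.49 ± 0.40, adjusted p = 0.306), and its DE levels ran from 23.3 CPM in AC705 to 78.2 CPM in AC695.

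Surface and keratin genes gave a similar picture. Of 12 listed, 11 rose, with a median of 4.40. Cxcr4, the receptor used for the sort and so no independent sign of endoderm, was at 3.53 to 5.97 CPM in EpiSC and 64.4 to 135 CPM in DE (4.48 ± 0.31). Kit, a receptor that marks endoderm with CXCR4, was at 31.9 to 41.6 CPM and 395 to 848 CPM (4.18 ± 0.29). Krt8, a keratin of simple epithelia, was at 51.1, 58.1 and 47.4 CPM in EpiSC and 2501, 2119, 2055 and 2560 CPM in DE (5.47 ± 0.15, adjusted p = 2.68e-07). Its partner Krt18 rose by 4.31 ± 0.24, and Krt19 and Krt7 by 4.6 ± 0.22 and 4.69 ± 0.32. Ackr3, which scavenges the CXCR4 ligand, rose by 4.95 ± 0.18, and Spink1, a trypsin inhibitor, by 6.33 ± 0.27. Epcam, an adhesion molecule present in both states, was at 206 to 223 CPM in EpiSC and 190 to 334 CPM in DE and was not called (0.24 ± 0.18, adjusted p = 0.275).

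Core pluripotency genes fell, with 2 members that did not. Of 11 tested, 9 were lower in DE, against 31.3% of all genes, and 1 was higher, with a median of -4.14. Sox2, the partner of OCT4, was at 47.7, 48.0 and 50.0 CPM in EpiSC and under 1 CPM in each DE library (-6.24 ± 0.26, adjusted p = 6.67e-07). Utf1, a chromatin factor of pluripotent cells, was at 173 to 248 CPM and 2.58 to 3.76 CPM (-6.04 ± 0.20). L1td1, an RNA-binding protein gene, was at 621, 562 and 637 CPM in EpiSC and 5.24 to 9.50 CPM in DE (-6.45 ± 0.21, adjusted p = 3.05e-07). Lin28a, which blocks let-7 maturation, fell by less, from 763 to 802 CPM to 50.8 to 129 CPM (-3.28 ± 0.28).

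Nanog stood apart in size. It was at 135, 158 and 139 CPM in EpiSC and still at 34.4, 45.8, 50.4 and 55.1 CPM in DE (-1.63 ± 0.16, adjusted p = 3.31e-05). Reads of Nanog may be shared with 2 copies annotated under its symbol. Sall4, a zinc finger factor of pluripotent cells, moved the other way, from 322 to 376 CPM in EpiSC to 756 to 779 CPM in DE of 3 lines and 529 CPM in AC699 (1.02 ± 0.15, adjusted p = 0.00037). Zfp296 was at 4.97 to 5.06 CPM in EpiSC and 1.99 to 4.27 CPM in DE and was not called (adjusted p = 0.128).

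Genes of the primed epiblast split. Of 13 tested, 7 fell and 5 rose. Foxd3, a forkhead repressor, was at 31.8, 30.4 and 43.2 CPM in EpiSC and at 0 CPM in 3 DE libraries, with 0.235 CPM in AC698 (-9.43 ± 0.71). The zinc finger gene Zic2 fell by 4.34 on the log2 scale, from 195 to 210 CPM to 6.5 to 13.1 CPM. The SOXC genes moved in opposite directions: Sox11 was lower (-2.56 ± 0.29) and Sox4 higher (3.31 ± 0.11). Fgf5, an epiblast growth factor, was at 238, 195 and 223 CPM in EpiSC and 981 to 1410 CPM in DE (2.43 ± 0.15), and Otx2, a homeobox gene of epiblast and anterior endoderm, rose by 2.05 ± 0.19. Of 12 naive pluripotency genes only 7 could be tested. Klf5 was higher (1.15 ± 0.19), and Klf4 and Tbx3 were lower by calls near the threshold (adjusted p = 0.0261 and 0.0488) that ended without some single libraries.

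DNA methylation genes fell in 5 of 7 tested (median -1.16). Tet1, which oxidises 5-methylcytosine, was at 341 to 346 CPM in EpiSC and 30.8 to 70.9 CPM in DE (-2.97 ± 0.27). The de novo methyltransferase gene Dnmt3a was at 250 to 252 CPM and 37.5 to 64.4 CPM (-2.21 ± 0.17), and Dnmt3b at 1228 to 1452 CPM and 375 to 518 CPM (-1.57 ± 0.13). Among 18 imprinted genes, 10 fell and 3 rose, against 31.3% and 33.9% of all genes. The maternally expressed RNAs Meg3 and Rian were at 338 to 371 and 322 to 398 CPM in EpiSC and at 23.2 to 68.3 and 12.1 to 51.2 CPM in DE (-3.17 ± 0.35 and -3.59 ± 0.42). Mest, a paternally expressed gene, rose by 1.48 ± 0.27. Feeder fibroblasts express some of these genes, and the fibroblast list summed to 2634 to 3461 CPM in EpiSC and 270 to 527 CPM in DE; its part in these values was not tested.

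**Figure D2:**
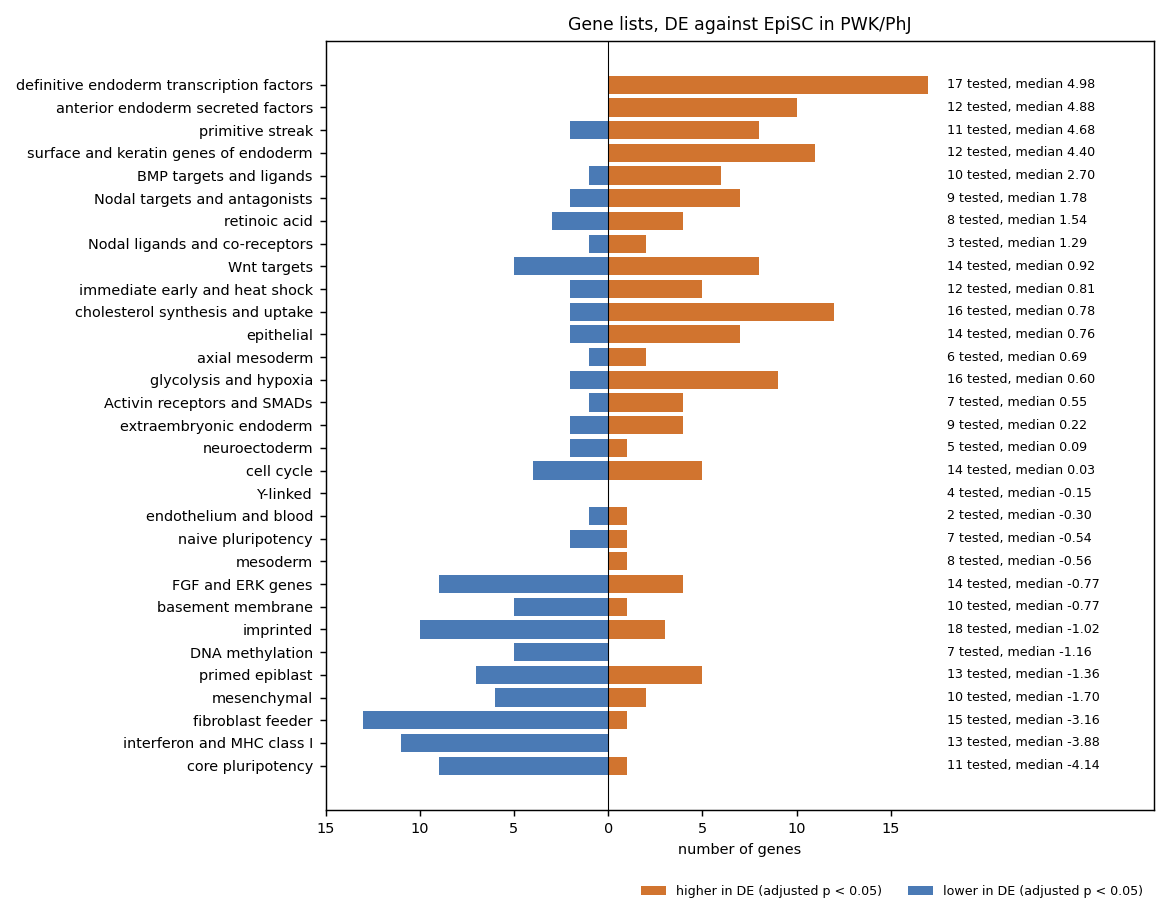
Number of genes called higher (orange, right) and lower (blue, left) in DE than in EpiSC of PWK/PhJ for each of 31 gene lists, with the number tested and the median log2 fold at the right. The endoderm lists are at the top, with 17 of 17 transcription factors higher, and core pluripotency is at the bottom, with 9 of 11 genes lower.

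Genes of the Nodal pathway changed in both directions. Nodal itself was at 82.2 to 113 CPM in EpiSC and 214 to 265 CPM in DE (1.29 ± 0.14, adjusted p = 6.39e-05). Of the EGF-CFC co-receptors, Cfc1, known as Cryptic, was at 4.47, 1.71 and 1.90 CPM in EpiSC and at 180, 165, 164 and 167 CPM in DE (5.95 ± 0.34). Tdgf1, known as Cripto, was at 338 to 340 CPM in EpiSC and at 173, 212 and 173 CPM in DE of AC695, AC698 and AC705, but at 342 CPM in AC699. Its call as lower was at the threshold (-0.59 ± 0.23, adjusted p = 0.0464) and ended without any single library other than AC699 (adjusted p = 0.0821 to 0.113). The levels of Cfc1 and Tdgf1 thus moved in opposite directions in the paired lines.

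Of 7 receptors and SMADs tested, 4 rose and 1 fell, against 33.9% and 31.3% of all genes. Acvr2b, a type II receptor gene, rose by 1.27 ± 0.12 and Smad2, a signal transducer, by 1.23 ± 0.12, whereas Acvr1b, the type I receptor ALK4, fell from 60.2 to 66.4 CPM to 14.6 to 41.8 CPM (-1.27 ± 0.30, adjusted p = 0.00496). Foxh1, the SMAD2 partner, rose by 0.78 ± 0.14. Of 9 Nodal targets and antagonists, 7 rose and 2 fell. Lefty2 was at 62.4 to 85.8 CPM in EpiSC and 481 to 545 CPM in DE of the paired lines, with 223 CPM in AC699 (2.63 ± 0.31). Bmp7, a BMP ligand, rose by 3.54 ± 0.19. The inhibitory SMAD gene Smad7 was at 96.3, 89.7 and 82.9 CPM in EpiSC and 3.21 to 8.45 CPM in DE (-3.91 ± 0.31), and Skil, a SMAD corepressor, fell by 1.32 on the log2 scale. Pmepa1, a feedback inhibitor, was at 292 to 474 CPM in 3 DE libraries but at 83.7 CPM in AC705, within the EpiSC range of 78.8 to 98.4 CPM. It was called (1.78 ± 0.48, adjusted p = 0.0106), and not with the cell line as a block (adjusted p = 0.055).

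FGF and ERK genes were mostly lower: of 14 tested, 9 fell and 4 rose (median -0.77). The feedback inhibitor Spry2 was at 167, 176 and 172 CPM in EpiSC and 1.97 to 3.40 CPM in DE (-6.0 ± 0.19, adjusted p = 2.85e-07). Etv5, an ETS factor induced by FGF, fell from 258 to 259 CPM to 21.1 to 38.0 CPM (-3.08 ± 0.19), and the ERK phosphatase gene Dusp6 fell from 290 to 308 CPM to 132 to 200 CPM (-0.96 ± 0.15). The growth factor gene Fgf4 fell from 13.3 to 21.0 CPM to 0 CPM in AC695 and AC705 and to 0.314 and 0.290 CPM in AC698 and AC699. Fgf8, a ligand of the streak and of endoderm, rose in contrast from 21.9 to 30.3 CPM to 583 to 687 CPM (4.68 ± 0.17), and Spry1 rose by 2.15 ± 0.13. Receptors diverged: Fgfr1 was lower (-2.44 ± 0.42) and Fgfr2 higher (2.13 ± 0.65), but Fgfr2 ran from 7.43 CPM in AC699, below the EpiSC range of 8.62 to 12.4, to 87.3 CPM in AC695, and its adjusted p of 0.0185 rose past 0.05 without EpiSC of AC695 or AC705.

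Wnt targets were mixed, with 8 of 14 higher and 5 lower. Axin2, the usual feedback readout of the pathway, was at 24.3 to 29 CPM in EpiSC and 1.10, 1.41, 2.61 and 6.06 CPM in DE of AC695, AC698, AC705 and AC699 (-3.21 ± 0.51, adjusted p = 0.000603). Lef1 was lower as well (-2.45 ± 0.23), as was the cyclin gene Ccnd1 (-2.38 ± 0.44). Sp5, a direct target, was at 0.713 to 1.59 CPM in EpiSC and at 19.7, 71.5, 57.5 and 323 CPM in DE of the same 4 lines (6.53 ± 1.09), and the feedback inhibitor Nkd1 at 7.45 to 8.62 CPM and at 18.8 to 65.4 CPM (2.16 ± 0.40). Each of these 5 genes had its highest DE level in AC699.

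Of 10 BMP targets and ligands, 6 rose and 1 fell, against 33.9% and 31.3% of all genes. The cells had been given a BMP receptor inhibitor for the last 24 h. Id1, a BMP target, was not called (0.44 ± 0.28, adjusted p = 0.201). The ligand gene Bmp4 was not called either (1.15 ± 0.50, adjusted p = 0.069), though DESeq2 called it (adjusted p = 0.0455). Id3, a BMP target, was at 9.42 to 14.7 CPM in EpiSC and 109 to 142 CPM in DE (3.34 ± 0.18), and the inhibitory SMAD gene Smad6 was at 3.30 to 5.24 and 43.8 to 59.7 CPM (3.67 ± 0.20). Bambi, a pseudoreceptor, rose by 3.19 ± 0.16. Id2 fell instead, from 27.9 to 31.4 CPM to 4.12 to 5.87 CPM (-2.60 ± 0.16). The ligand gene Bmp2 was at 15.1, 6.92 and 11.8 CPM in EpiSC and 512, 303, 289 and 124 CPM in DE (4.77 ± 0.52). Msx1 was not called (1.22 ± 1.06, adjusted p = 0.334): AC699 was at 67.1 CPM and the other DE libraries at 2.49 to 5.24 CPM, below the EpiSC range of 6.88 to 10.7. Without AC699 the fold turned to -1.03 and was called (adjusted p = 0.023), and with the line as a block it was -1.08 (adjusted p = 0.021).

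Retinoic acid genes divided by role. Stra6, the receptor for retinol uptake, rose from under 1 CPM to 15.2 to 49.5 CPM (5.83 ± 0.49). Crabp1, which binds retinoic acid, fell from 69.5 to 127 CPM to 8.66 to 42.1 CPM (-2.15 ± 0.54). In all, 4 of 8 rose and 3 fell, against 33.9% and 31.3% of all genes.

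Streak genes rose in 8 of 11 tested, and 2 fell. The shared members Eomes, Gsc and Lhx1 are given above. Mixl1, the homeobox gene of the streak, was at 3.10 to 7.87 CPM in EpiSC and 91.0, 164, 131 and 322 CPM in DE (4.94 ± 0.54, adjusted p = 6.29e-05). Evx1, a marker of the posterior streak, was under 0.4 CPM in EpiSC and at 5.15, 12.4, 7.09 and 38.9 CPM in DE (5.98 ± 0.95). T, the streak and notochord factor Brachyury, fell from 161, 147 and 141 CPM to 13, 39.3, 20.1 and 37.3 CPM (-2.45 ± 0.34). Wnt3 was at 51.9 to 66.7 CPM in EpiSC, at 17.5 to 20.4 CPM in 3 DE libraries and at 57.2 CPM in AC699, and its call as lower was at the threshold (-1.04 ± 0.40, adjusted p = 0.0461). That call ended without any single library other than AC699 (adjusted p = 0.0674 to 0.117).

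Markers of other lineages stayed low or were mixed. Of 13 mesoderm genes 8 could be tested, and 1 was called: Pdgfra, a receptor of mesoderm and of primitive endoderm, rose from 10.3 to 15.8 CPM to 36.4 to 106 CPM (2.60 ± 0.36). The mesoderm list summed to 20.1 to 25.6 CPM in EpiSC and 51.6 to 113 CPM in DE, most of it Pdgfra. Kdr, the VEGF receptor of blood and vessel precursors, was at 2.60 to 4.74 CPM in EpiSC and at 0.507, 0.627 and 2.07 CPM in DE of the paired lines, but at 5.19 CPM in AC699, and was not called (adjusted p = 0.38, and 0.0334 as lower without AC699). Only 2 of 6 endothelial and blood genes passed the filter, with a summed level of at most 3.15 CPM in any library. In axial mesoderm, Nog rose (4.11 ± 0.69) to 1.86 to 15.1 CPM and Noto (2.5 ± 0.68) to about 1 CPM. Of neural genes, Nes, an intermediate filament gene of progenitors, fell from 292 to 312 CPM to 14.4 to 65.9 CPM (-3.16 ± 0.43), and Six3, an anterior homeobox gene, rose from under 1 CPM to 2.70 to 8.43 CPM (3.67 ± 0.57).

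Extraembryonic endoderm shares many genes with definitive endoderm, so its markers were checked. Of 12 listed, Ttr, Afp and Amn did not pass the filter on counts. Of the 9 tested, 4 rose and 2 fell, against 33.9% and 31.3% of all genes. Apoe, an apolipoprotein gene of many tissues, rose from 51.7 to 89.6 CPM to 481 to 764 CPM (3.06 ± 0.25), and Apoa1 was at 1.04 to 8.40 CPM in DE. Thbd, a surface marker of parietal endoderm, fell from 14.1 to 19.9 CPM to at most 1.72 CPM (-4.38 ± 0.60).

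Epithelial genes rose in 7 of 14 and fell in 2, against 33.9% and 31.3% of all genes. The claudin gene Cldn4 was at 3.03 to 4.53 CPM in EpiSC and 19.7 to 52.9 CPM in DE (3.47 ± 0.36), and Cldn6 rose from 144 to 164 CPM to 837 to 1241 CPM (2.72 ± 0.15). Tjp1, which encodes ZO-1, fell from 310 to 340 CPM to 65.4 to 107 CPM (-2.0 ± 0.17). Cdh1, E-cadherin, was at 694 to 722 CPM in EpiSC and spread from 275 CPM in AC699 through 689 and 812 CPM to 1351 CPM in AC695 (0.14 ± 0.41, adjusted p = 0.774), and its fold was -0.24 without DE of AC695. Cdh2, N-cadherin, rose from 58.2 to 60.4 CPM to 94.7 to 242 CPM (1.44 ± 0.27, adjusted p = 0.00151).

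Among 10 mesenchymal genes 6 fell and 2 rose, against 31.3% and 33.9% of all genes. Fn1, fibronectin, fell from 2958 to 3476 CPM to 204, 492, 665 and 675 CPM in AC695, AC698, AC705 and AC699 (-2.70 ± 0.36). Snai1, the factor that represses E-cadherin, rose by 1.15 ± 0.27. Vim, vimentin, was at 618 to 665 CPM in EpiSC and at 99.4, 343, 371 and 802 CPM in DE, and was not called with AC699 (adjusted p = 0.283), but was called as lower without it (adjusted p = 0.0316). In basement membrane, 5 of 10 fell and 1 rose, against the same shares of all genes. Hspg2, perlecan, fell by 4.11 and Nid1 by 2.66 on the log2 scale, whereas Nid2 rose by 1.67 ± 0.21.

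EpiSC shared the dish with feeder fibroblasts, and fibroblast markers moved with the comparison. Of 15 such genes, 13 were lower in DE and 1, Acta2, was higher (0.95 ± 0.31, adjusted p = 0.023). That call ended without AC699 (adjusted p = 0.0503) and without EpiSC of AC695 or of AC705 (both 0.104). Thy1 was at 82.9 to 89.8 CPM in EpiSC and under 1 CPM in DE (-7.17 ± 0.51), Col1a1 at 580 to 845 and 16.1 to 131 CPM (-3.25 ± 0.56), and Fbn1 at 279 to 313 and 8.49 to 24.6 CPM (-4.04 ± 0.31). The whole list summed to 2634 to 3461 CPM in EpiSC and 270 to 527 CPM in DE, where Acta2 alone was at 87.2 to 164 CPM. Xist, transcribed from an inactive X chromosome, was at 40.3, 37.1 and 31.0 CPM in EpiSC of AC695, AC698 and AC705, which also expressed Y-linked genes. In DE of the same lines it was at 0.0422, 0.0392 and 0.602 CPM. In DE of AC699, where the Y-linked genes summed to 6.6 CPM, it was at 9.21 CPM. The part of feeder RNA in the lower mesenchymal, basement membrane, imprinted and interferon genes was not tested.

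Interferon and MHC class I genes fell in 11 of 13 tested (median -3.88). Ifit1, an interferon-induced gene, was at 91.6, 18.4 and 53.2 CPM in EpiSC of AC695, AC698 and AC705 and at 0 to 0.338 CPM in DE (-9.21 ± 0.86). Isg15, a ubiquitin-like modifier, was at 71.3, 16.8 and 41.5 CPM and at 0 to 0.392 CPM (-8.15 ± 0.90). B2m, the light chain of class I molecules, fell by less (-1.67 ± 0.39), and H2-K1 was not called (0.12 ± 0.25), with a fold that changed sign without some libraries. These genes also held the largest differences between EpiSC lines. By the SD of log2 CPM, Mx2, Trim30a, Usp18, Ifit1, Oas1a, Oasl2 and Isg15 were the first 7 genes and Efemp1 the eighth. In each of the 8, AC695 was highest, AC705 next and AC698 lowest, as in Mx2 at 86.9, 46.4 and 12.8 CPM.

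**Figure D3:**
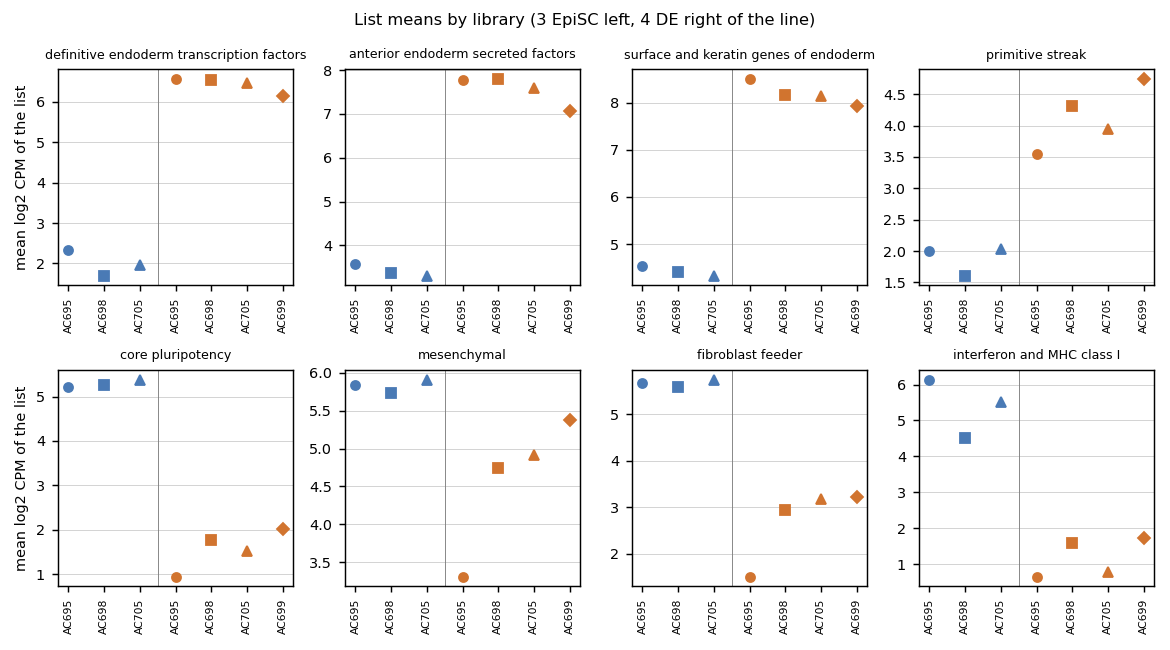
Mean log2 CPM of 8 gene lists in each of the 7 PWK/PhJ libraries, with EpiSC in blue to the left of the line and DE in orange to the right. Within DE, AC695 has the lowest mesenchymal mean (3.31) and AC699 the highest (5.38), and within EpiSC the interferon list is lowest in AC698 (4.52).

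Metabolic genes changed by smaller folds. Of 16 glycolysis and hypoxia genes, 9 rose and 2 fell (median 0.60), against 33.9% and 31.3% of all genes. The glucose transporter genes Slc2a3 and Slc2a1 rose by 2.75 ± 0.28 and 2.06 ± 0.22, Slc2a3 from 368 to 473 CPM to 1608 to 3692 CPM. Ldha, lactate dehydrogenase, rose by 1.89 ± 0.21, with 2 copies annotated under its symbol that may share its reads. Hk2, a hexokinase gene, fell by 1.75 on the log2 scale. Gapdh was not called (0.11 ± 0.11). Of 16 cholesterol genes, 12 rose and 2 fell, with Fdft1, squalene synthase, at 146 to 189 and 464 to 645 CPM (1.72 ± 0.15). Dhcr7, the last step of the pathway, went the other way, from 174, 131 and 173 CPM to 14.7, 15.4, 27.4 and 14.3 CPM (-3.14 ± 0.25, adjusted p = 1.11e-05).

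Cell cycle genes were called at near the shares of all genes. Of 14 tested, 5 were higher and 4 lower (median 0.03), against 33.9% and 31.3% of all genes. Top2a, a topoisomerase of S and G2 phase, fell by 1.20 and the proliferation marker Mki67 by 1.15 on the log2 scale, and Aurkb, a mitotic kinase gene, rose by 0.67 ± 0.10. Of 12 immediate early and heat shock genes, 5 rose and 2 fell, against the same shares of all genes. Jun was higher (1.84 ± 0.30), as was Ier2 (1.84 ± 0.11), and Egr1 was lower (-1.56 ± 0.29). DE cells had been dissociated, stained and passed over a column, and EpiSC had not been sorted, so handling and cell state cannot be told apart in this list.

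Genes were ranked by fold where their log2 CPM, averaged over the 7 libraries of both states, was 4 or more. This leaves out many genes that were near 0 CPM in 1 of the states. The 12 largest increases were Sox17, Foxq1, Cer1, Gsc, Pga5, Hkdc1, Gata6, Spink1, Dkk1, Hhex, Cfc1 and Fgfbp1. Of those not yet described, Pga5, a pepsinogen gene, was at 6.29 to 15.6 CPM in EpiSC and 2293, 1011, 1554 and 383 CPM in DE (7.10 ± 0.75). Hkdc1, a hexokinase-related gene, was at 0.678 to 2.42 and 40.7 to 296 CPM (6.60 ± 0.85), and Fgfbp1, which carries FGFs, at 2.25 to 2.42 and 118 to 168 CPM (5.95 ± 0.17). Pga5 and Hkdc1 were lowest in DE of AC699, and Fgfbp1 was not.

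The 12 largest decreases in this ranking were L1td1, Utf1, Spry2, Pou5f1, Zfp462, Col6a3, Igfbp5, Plcg2, Sema6a, Pim2, Kif1c and Taf15. Genes almost absent in DE fell by more but were below the cutoff, such as Foxd3 (-9.43) and Fgf4 (-6.94). Zfp462, a zinc finger gene, was at 207 to 237 CPM in EpiSC and 2.67 to 6.07 CPM in DE (-5.68 ± 0.31). Pim2, a serine kinase gene, was at 821, 737 and 834 CPM in EpiSC and 24.7, 26.1, 26.7 and 31.9 CPM in DE (-4.87 ± 0.12), and Plcg2, a phospholipase gene, at 362 to 383 and 9.67 to 12.4 CPM (-5.10 ± 0.12, adjusted p = 2.28e-07). The SE of these 2 was smaller than that of Zfp462. Col6a3 and Igfbp5, which fibroblasts express strongly, fell by 5.62 and 5.24 on the log2 scale. Sema6a, a guidance molecule gene, Kif1c, a kinesin gene, and Taf15, an RNA-binding protein gene, had log2 folds of -4.94, -4.81 and -4.80.

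The 4 endoderm libraries were not alike, and the following is a description with no test. Among the 8151 genes whose log2 CPM averaged 4 or more in DE, the library farthest from the median of the 4 was AC699 for 49.2%, against 24.2% for AC705, 19.6% for AC695 and 6.94% for AC698. AC699 had the lowest level of 12 of 17 endoderm transcription factors and 9 of 12 surface and keratin genes, against 30.4% of all genes. It had the highest level of 6 of 11 streak genes, 8 of 14 Wnt targets and 9 of 10 mesenchymal genes, against 32.1% of all genes. AC695 had the lowest level of all 10 mesenchymal genes, 9 of 11 streak genes and 13 of 15 fibroblast markers, against 30.1% of all genes. It also held the highest level of 8 of 17 endoderm transcription factors. The same 2 lines were therefore at opposite ends of several lists.

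Genes with the largest SD between DE lines showed that pattern. Besides the Y-linked Ddx3y and Eif2s3y, which were at 2.95 and 2.57 CPM in AC699 and at 61.4 CPM or more in the other lines, they were Csf1, Wscd1, Wisp1, Sp5, Cav1 and Khdrbs3. Csf1, the macrophage colony-stimulating factor gene, was at 4.69, 36.9, 68.0 and 72.2 CPM in AC695, AC698, AC705 and AC699. The Wnt-induced gene Wisp1 was at 3.80, 33.1, 42.3 and 60.9 CPM, and Cav1, caveolin, at 3.00, 24.1, 32.2 and 33.3 CPM. All of these were lowest in AC695. Wscd1 ran the other way, at 221, 104, 69.7 and 11.2 CPM, and Khdrbs3, an RNA-binding protein gene, was at 5.35 CPM in AC705 and 37.7 to 59.5 CPM in the others. AC705 also had the highest levels of 11 of 16 glycolysis and hypoxia genes, as in the hypoxia gene Bnip3 at 84.9 CPM against 18.7 to 44.1 CPM.

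**Figure D4:**
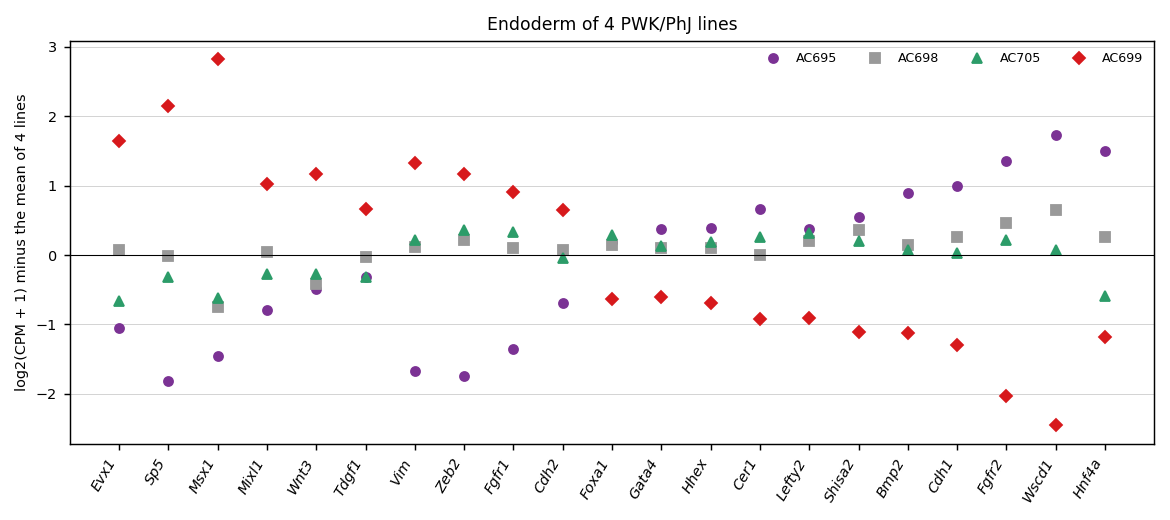
Levels of 21 genes in DE of the 4 PWK/PhJ lines, as log2(CPM + 1) minus the mean of the 4 lines, with 1 colour and shape per line. AC699 (red) lies highest for genes such as Sp5 (323 CPM) and Msx1 (67.1 CPM) and lowest for genes such as Cer1 (2642 CPM) and Cdh1 (275 CPM), and AC695 (purple) mostly lies on the other side.

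The change in PWK/PhJ was set against that in C57BL/6J, the strain of the reference genome, with 5 EpiSC and 5 DE libraries made in the same way. PWK/PhJ was not contrasted with the other strains. A difference below can therefore not be assigned to 1 of the 2 strains. The difference of the 2 log2 folds was tested in a fit of all 34 libraries. Of 20907 genes tested, 1394 were called (6.67%), with 829 (3.97%) higher and 565 (2.70%) lower in PWK/PhJ. With the cell line as a block, 798 were called, and 811 to 842 were called when 1 of the 3 PWK/PhJ EpiSC libraries was left out. PWK/PhJ reads were aligned to the mm10 genome, and the part of alignment in these differences was not tested.

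Endoderm markers were compared between the strains by the size of their fold. Of 18 endoderm transcription factors and 12 surface and keratin genes, 0 were called in edgeR's test of the difference. At an unadjusted p under 0.05 they numbered 3 and 5, and DESeq2 called 1 in each list, Sox18 and Cxcr4. Sox17 reached 1186 ± 85.1 CPM (SD, n = 4) in PWK/PhJ DE and 1212 ± 221 CPM (SD, n = 5) in C57BL/6J DE, in CPM scaled over all 34 libraries and so not the same as the values above, and the difference of its folds was 1.08 ± 0.76 (SE; adjusted p = 0.486). For Cer1 the difference was 1.23 ± 0.95 (adjusted p = 0.544) and for Foxa2 0.30 ± 0.48 (adjusted p = 0.819). Pou5f1 had folds of -5.88 and -7.42 (difference 1.53 ± 0.83, adjusted p = 0.328), and Nanog had folds of -1.69 and -3.28 (difference 1.60 ± 0.57, adjusted p = 0.0941). These p-values miss the threshold and do not show that the strains were alike. Without a filter on low counts Sox17, Cer1, Pou5f1, Nanog and Cxcr4 were called. Single C57BL/6J libraries also decided some calls. Without DE replicate 1 the difference for Pou5f1 was 2.97 (adjusted p = 0.000551), and without DE replicate 3 that for Nanog was 2.01 (adjusted p = 0.0183). Cxcr4 was called without EpiSC replicate 1 (adjusted p = 0.0143) or 4 (adjusted p = 0.0206).

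Over all lists, 35 of 317 members tested were called (11%), against 6.67% of all genes. The lists were chosen with earlier results of these data known, so this excess is a description only. The called members included 3 of 9 Nodal targets and antagonists, 3 of 6 axial mesoderm genes, 3 of 13 mesoderm genes and 3 of 14 Wnt targets. They also included 3 of 18 imprinted genes and, of 16 cholesterol genes, 2 higher and 2 lower. Of 14 epithelial genes 1 was called, near the share of all genes. Lefty2 rose by 2.57 in PWK/PhJ and by 6.08 in C57BL/6J (difference -3.50 ± 0.63, adjusted p = 0.000972), with DE levels of 210 to 512 and 303 to 2018 CPM. Tdgf1 fell by 0.65 in PWK/PhJ and 2.43 in C57BL/6J (difference 1.78 ± 0.34, adjusted p = 0.00148), from EpiSC levels of 331 to 332 and 518 to 1117 CPM. The Activin antagonist gene Fst had folds of 0.56 and -1.93 (difference 2.48 ± 0.59), and the BMP antagonist gene Nog of 4.05 and -1.04 (difference 5.09 ± 1.28), though the call for Nog ended with the line as a block (adjusted p = 0.159). Cldn4 rose by 3.41 in PWK/PhJ and had a fold of -3.99 in C57BL/6J, where its DE level was 0.347 to 1.42 CPM against 18.6 to 49.8 CPM in PWK/PhJ (difference 7.40 ± 1.34, adjusted p = 0.00118). Evx1 reached 4.84 to 36.6 CPM in PWK/PhJ DE and 1.40 to 4.34 CPM in C57BL/6J DE (difference 4.39 ± 0.91, adjusted p = 0.00343, and 0.0796 with the line as a block). EpiSC levels spread widely among the C57BL/6J lines for some of these genes, as in Cldn4 from 1.09 to 37.9 CPM and Nog from 0.45 to 17.1 CPM.

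Further differences lay in single enzymes. Dnmt3b fell by 1.63 in PWK/PhJ and had a fold of -0.27 in C57BL/6J (difference -1.36 ± 0.25, adjusted p = 0.000994). Dhcr7 fell by 3.20 in PWK/PhJ and had a fold of 0.05 in C57BL/6J, with DE levels of 13.5 to 25.9 and 80.5 to 228 CPM (difference -3.25 ± 0.36, adjusted p = 1.64e-06). Plcg2 was at 352 to 376 CPM in PWK/PhJ EpiSC and 39.4 to 45.5 CPM in C57BL/6J EpiSC, and at 9.09 to 11.8 and 4.89 to 9.70 CPM in DE (difference -2.48 ± 0.27).

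Ranked by the signed difference of folds, PWK/PhJ minus C57BL/6J, the highest were Mcc, Fhl3, Foxj1, Aplnr, Enpp3, Itga3, Ccdc85c and Tspan2. Fhl3, a LIM protein gene, was at 35.3 to 42.2 CPM in PWK/PhJ EpiSC and 46.3 to 63.4 CPM in DE, but at 36.0 to 50.4 CPM in C57BL/6J EpiSC and 0.679 to 1.84 CPM in DE (difference 5.62 ± 0.39, adjusted p = 8.19e-10). Ccdc85c, a cell junction gene, was at 71.0 to 85.6 and 61.8 to 82.5 CPM in PWK/PhJ, and at 68.3 to 92.2 and 3.18 to 7.11 CPM in C57BL/6J (difference 3.92 ± 0.29, adjusted p = 2.41e-09). Both genes thus had like levels in EpiSC of the strains and differed in DE. Mcc, a tumour suppressor gene, differed in EpiSC too, at 4.20 to 6.80 CPM in PWK/PhJ and 41.3 to 93.9 CPM in C57BL/6J.

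The lowest signed differences were those of P3h2, Chga, Itpk1, Ntrk2, Arhgap27, Lig4, Usp18 and Lefty2. Itpk1, an inositol phosphate kinase gene, was at 35.5 to 37.0 CPM in PWK/PhJ EpiSC and 1.95 to 4.49 CPM in DE, and at 27.4 to 47.2 and 38.5 to 69 CPM in C57BL/6J (difference -4.17 ± 0.29, adjusted p = 8.19e-10). Lig4, a DNA ligase gene, was at 0.635 to 2.18 CPM in PWK/PhJ DE and 12.4 to 23.5 CPM in C57BL/6J DE from like EpiSC levels (difference -3.77 ± 0.33), and Arhgap27, a GTPase activator gene, at 1.06 to 2.03 and 11.1 to 23.3 CPM (difference -3.78 ± 0.30). Chga, chromogranin A, was at 5.24 to 19.9 CPM in PWK/PhJ DE and 151 to 389 CPM in C57BL/6J DE (difference -4.34 ± 0.58), and Ntrk2, a neurotrophin receptor gene, at 1.95 to 7.90 and 50.6 to 74.5 CPM (difference -4.05 ± 0.45). For each of these 5 genes the DE levels of the strains did not overlap. The genes were picked by their difference in these same libraries, which favours such gaps. The share of all genes without overlap between the strains was not computed.

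**Figure D5:**
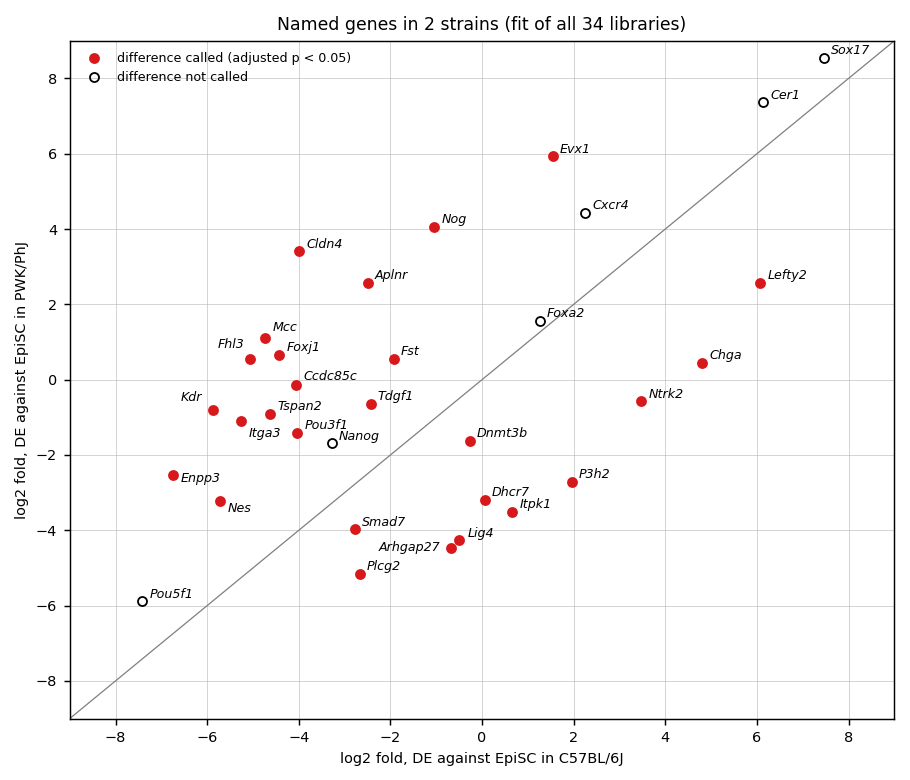
Log2 fold of DE over EpiSC in C57BL/6J (x axis) and PWK/PhJ (y axis) for 33 named genes, from the fit of all 34 libraries, with equal folds on the grey line. Genes whose difference was called are red, among them Cldn4 at -3.99 and 3.41, and Sox17, Cer1 and Pou5f1 are open circles near the line.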

How the data were processed

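The authors deposited raw read counts for 53655 genes, in 1 table per cell type. The submitters' processing notes name STAR 2.4 (alignment), the mm10 build, HTSeq 0.6.1 (counting) and DESeq2. Annotation release, strand setting and handling of multiply aligned reads were not given in the sources used here, so reads of antisense, overlapping or near-identical genes may be mixed. Of 180 genes tested for named results, 7 had copies annotated under their own symbol as pseudogene or related sequence (Krt8, Nanog, Dnmt3a, Tdgf1, Bambi, Ldha and Gapdh). Copies under other names, such as those of predicted genes, were not searched for, so these and other genes may have more.

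The 7 PWK/PhJ libraries were scaled together (TMM) and tested with edgeR 4.0.16 in R 4.3.3 (robust quasi-likelihood F test, Benjamini-Hochberg adjustment over all genes, threshold 0.05) for genes reaching 10 counts in 3 or more libraries. CPM are TMM-scaled, and log2 CPM used a prior count of 2. The difference between strains was a contrast in a fit of all 34 libraries with 1 coefficient per strain and cell type. All adjusted p-values are from edgeR unless another tool is named. The 3 lines AC695, AC698 and AC705 gave both libraries and are paired by origin. Their deviations from the group means correlated by 0.014 to 0.041 over 12097 genes, against -0.042 to 0.011 for other lines, so the unpaired fit, which keeps AC699, was the main one. Exact permutation over 4 and 3 libraries cannot reach the threshold and was not used. In data simulated from these counts, changes were put into some genes with a mean above 4 CPM, and all other genes were given none. Among 17351 genes, the test called 56% of the 2-fold and 91% of the 4-fold changes put in. For the strain difference, among 20907 genes, it called 35% and 91%. These rates do not cover genes at lower levels. In the real comparison 65.3% of genes were called, so its rates may differ. Replicate libraries differed beyond counting noise in every pair. The smallest chi-square per degree of freedom was 6.58 in EpiSC.

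Named genes were members of 31 lists, the 12 largest folds in each direction, the 8 largest strain differences in each direction, and the 8 genes with the largest SD in DE and in EpiSC. Ranking by fold needed non-overlapping groups and a log2 CPM of 4 or more, averaged over DE and EpiSC together. Ranking by strain difference needed an average of 3 or more. Predicted genes and genes with pseudogene copies annotated under their own symbol were passed over. Some list members are counted with their lists and not reported here by name. The members and lists were chosen with earlier results of these data known. Alternatives were RLE scaling, DESeq2 1.42.0, no filter, the line as a block, other sets of libraries and leaving out each library. Promoter sequences are from RefSeq. Amplified reads carried no molecular identifiers.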

Additional observations from a re-analysis of the deposited data

Results flagged for a closer look

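Among the 165 named genes, 12 had 1 of the 4 DE libraries far from the other 3, with a gap, relative to the group's range of log2 CPM, above the critical value of Dixon's test. Chance flags about 1 in 20 such groups. AC699 was that library in 6 of them. It was lowest for Foxa1 (7.38, others 8.16 to 8.30), Chrd (5.97, others 6.66 to 6.80), Sall4 (9.05, others 9.56 to 9.61), Smad2 (6.62, others 6.94 to 6.97) and Lefty2 (7.80, others 8.91 to 9.09), and highest for Wnt3 (5.84, others 4.14 to 4.35). AC695 was highest for Egr1 (6.54, others 5.39 to 5.54) and lowest for Nid1 (3.64, others 5.58 to 5.91) and the caveolin gene Cav1 (1.61, others 4.6 to 5.06). AC705 was lowest for Cldn4 (4.30, others 5.53 to 5.73) and highest for Dhcr7 (4.78, others 3.85 to 3.95). AC698 was highest for Foxd3 at -1.74, where the others held no counts.

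The change toward DE differed between PWK/PhJ and C57BL/6J for 40 of 180 genes examined by name, by the test of the difference in edgeR (adjusted p under 0.05). That is 22.2%, against 6.67% of all genes. The 180 include the 8 top-ranked called differences in each direction, picked in these same data. The excess is therefore partly set by that choice. Differences are PWK/PhJ minus C57BL/6J in log2 fold. Ranked genes with a positive difference were Mcc (5.83), Fhl3 (5.62), Foxj1 (5.09), Aplnr (5.06), Enpp3 (4.21), Itga3 (4.17), Ccdc85c (3.92) and Tspan2 (3.71). Aplnr, the apelin receptor gene, was at 5.14 to 182 CPM in C57BL/6J EpiSC. Ranked genes with a negative difference were P3h2 (-4.66), Chga (-4.34), Itpk1 (-4.17), Ntrk2 (-4.05), Arhgap27 (-3.78), Lig4 (-3.77), Usp18 (-3.60) and Lefty2 (-3.50).

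Of list members, signalling genes were Nog (5.09), Fst (2.48), Tdgf1 (1.79) and Smad7 (-1.20). Lineage genes were Evx1 (4.39), Pou3f1 (2.61), Nes (2.5) and Kdr (5.05), where Kdr was at 0 to 0.177 CPM in C57BL/6J DE and rests on few counts. The others were Cldn4 (7.40), Dnmt3b (-1.36), Dhcr7 (-3.25) and the ranked gene Plcg2 (-2.48). Blocking on line ended the calls for Nog (adjusted p = 0.159), Evx1 (0.0796), Pou3f1 (0.057) and Kdr (0.0944). The call for Aplnr ended without EpiSC of AC705 (0.0582) or AC698 (0.0546), and that for Nog without EpiSC of AC695 (0.0629) or AC705 (0.0563). For Nes it ended without AC699 (0.0811) or any PWK/PhJ EpiSC library (0.0623 to 0.0667). For Smad7 it ended without any 1 of 9 libraries of either strain (0.0513 to 0.104).

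A further 12 of the 40 were Noto (5.11), Fgfbp1 (2.42), Nid2 (2.34), Klf5 (1.71), Znrf3 (1.24), Tcf7 (0.60), Sall4 (-0.98), Etv5 (-1.22), Bambi (-1.22), Mest (-1.78), Meg3 (-2.30) and Efemp1 (-2.84). The calls for Noto, Fgfbp1, Klf5, Znrf3, Tcf7, Sall4, Efemp1 and Usp18 ended with the line as a block, at adjusted p-values of 0.0533 (Efemp1) to 0.258 (Sall4), and also without single libraries of PWK/PhJ. The call for Mest ended without EpiSC of AC698 (0.0932).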

How the results depend on the processing

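The DE against EpiSC comparison in PWK/PhJ called 11325 genes. The count was 9189 to 11704 when 1 library was left out, lowest without an EpiSC library and highest without AC699, 11103 with the line as a replicate block, 11281 with RLE scaling, 11615 with DESeq2, 11512 with no filter and 11466 with all 34 libraries. The share called higher was 48.6% to 53.3% under these. The strain difference called 1394 genes, and 2150 with no filter, 798 with the replicate block and 811 to 1963 when 1 library was left out. It called 979 with the PWK/PhJ and C57BL/6J libraries alone, 1990 with DESeq2 and 1386 with RLE scaling. Of its 1394 genes, 716 were shared with the blocked fit. The lower counts without a PWK/PhJ EpiSC library come with 2 libraries left in that group.

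Of 165 named genes, 27 changed their call or direction in at least 1 of 12 alternatives. Directions turned for 3 genes not called in the main comparison. Msx1 was at -1.08 with the block and at -1.03 (without AC699) to 1.59 when 1 library was left out. Cdh1 was at -0.24 (without DE of AC695) to 0.42. H2-K1 was at -0.013 with the block and at -0.16 (without EpiSC of AC698) to 0.29, with -0.06 without AC699. The cause was not tested. Among genes called in the main comparison, 16 lost the call in some alternative: Acta2, Crabp1, Dppa4, Fgfr2, Fst, Grb10, Klf4, Noto, Pmepa1, Pou3f1, Snai1, Tbx3, Tdgf1, Wnt3, Wscd1 and Zeb2. Of 46 genes followed for a strain difference, 21 changed their call in some alternative, 16 of them losing it, and none its direction. Among counts of list members, 676 of 744 stayed within 1.5 times the main count.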
